A study of Drosophila melanogaster with 6 samples.

Results

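The mitochondrial ribosomal protein genes of Drosophila melanogaster were followed in whole embryos that had developed from Raf926 eggs and in wild-type (WT) embryos. Members were all genes whose FlyBase symbol starts with mRpL, for proteins named after the large subunit, or with mRpS, for the small subunit. This gave 73 of the 17714 genes in the deposited tables, 47 of them mRpL and 26 mRpS. The rule uses the symbol alone, and it was set with earlier results of these data known. Mitochondria carry their own ribosome, the mitoribosome, which translates the few mRNAs encoded by mitochondrial DNA. Those mRNAs encode core subunits of the respiratory chain and of ATP synthase. The rRNAs of the mitoribosome are transcribed from mitochondrial DNA, whereas its proteins are encoded in the nucleus, made in the cytoplasm and imported. Some of these proteins descend from bacterial ribosomal proteins and others have no bacterial counterpart.

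RNA was sequenced from 3 samples of Raf926 embryos and 3 samples of WT embryos. The methods call them biological replicates. Raf926 is an allele of Raf, the kinase that links Ras to MEK and ERK, in which a small deletion shifts the reading frame and ends the protein early. The Raf926 embryos came from germline clones, in which mitotic recombination at FRT19A over a dominant female-sterile ovoD2 chromosome makes the eggs homozygous mutant. They therefore lacked maternal wild-type Raf, while the sample labels give their genotype as Raf926-/-. A cross listed in the methods uses FM6 males, and others use males with transgenes. Which cross gave the sequenced embryos is not stated. WT embryos were of the Oregon R strain, so the groups differed in genetic background and in the cross as well as in the allele. Samples were mixed-stage collections of whole embryos. The labels give 24 h of egg laying at 25 °C, whereas the study's methods give a shorter collection at a lower temperature, and the conflict was not settled here. In such bulk samples, fewer cells of a kind and less RNA per cell cannot be told apart.

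The total expected count lay between 33275401 and 37426014 in the Raf926 samples and between 34774771 and 38120428 in the WT samples. Counts of every member were 179 or more in every sample. Values below are normalized counts, that is expected counts after TMM scaling, brought to the average depth of the libraries, and log2 fold changes are of Raf926 over WT with the standard error of the fit. A gene was called at an adjusted p under 0.1 (edgeR quasi-likelihood test, Benjamini-Hochberg adjustment over all 11568 genes tested) and a fold change over 1.5. Raf itself had 1202, 1399 and 1546 normalized counts in Raf926 samples, against 2539, 2935 and 2184 in WT samples, a log2 fold change of -0.88 ± 0.15 (adjusted p = 0.00156). These counts cover the whole gene and do not test for the deletion itself. The groups differed widely: 2631 genes were called higher and 3116 lower in Raf926, or 1967 higher and 3833 lower when counts were scaled by library size alone. Genes known for maternal transcripts, muscle and neurons moved with the genotype. The 10 maternal transcripts listed were all called higher, with summed normalized counts of 79514 to 102602 in Raf926 samples, against 29874 to 42273 in WT samples. Of 9 muscle genes, 8 were called lower, with sums of 27325 to 44720 in Raf926 samples, against 125696 to 221212 in WT samples. The muscle genes were uneven among the Raf926 samples: the SD was 138% of the mean in the median gene, against 30.6% among WT samples. Of 6 neuronal genes, 5 were called lower, with sums of 4385 to 4929 in Raf926 samples, against 17719 to 23061 in WT samples. None of 7 follicle cell genes passed the filter, Cp16 was at 0 in every sample, and the sums were 25.6 to 30.4 in Raf926 samples, against 15.6 to 20.8 in WT samples. The part of these differences in the results on mitochondrial ribosomal proteins was not tested.

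The mitochondrial ribosomal protein genes were lower as a group in Raf926 embryos. All 73 passed the filter on low counts. The log2 fold change was below 0 for 69 of them (94.5%, against 52% of all genes tested) and above 0 for 4. Their median log2 fold change was -0.46 (interquartile range -0.70 to -0.25), against -0.04 (-0.75 to 0.55) over all genes tested. The median member thus stood at 72.8% of its WT level. The changes were narrow as well as one-sided: the standard deviation of the log2 fold changes was 0.32 over the members and 1.74 over all genes tested. It was 0.33 over the cytoplasmic ribosomal protein genes, so the narrow spread was not particular to the members.

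Of the 73 genes, 27 (37%) were called lower, against 26.9% of all genes tested. A single member, mRpS5, was called higher (1.37%), against 22.7% of all genes. The fold threshold removed many members whose difference was small but regular. Without it, 50 members (68.5%) had an adjusted p under 0.1 and were lower, against 34.3% of all genes, and mRpS5 alone was higher, against 32.3%. The remaining 22 passed in neither direction, and 19 of them had a negative log2 fold change. In 58 members (79.5%) every Raf926 sample was below every WT sample, against 35.2% of all genes. In 2 members, mRpS5 and mRpL10, every Raf926 sample was above every WT sample, against 33.3% of all genes, and in 13 the groups overlapped. One member, mRpL37, was lower by more than 2-fold. The median standard error was 0.14 over the members and 0.19 over all genes tested. Shares that pass without a fold threshold, and shares with the groups apart, depend on such precision. The background of all genes was not matched for it.

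**Figure D1:**
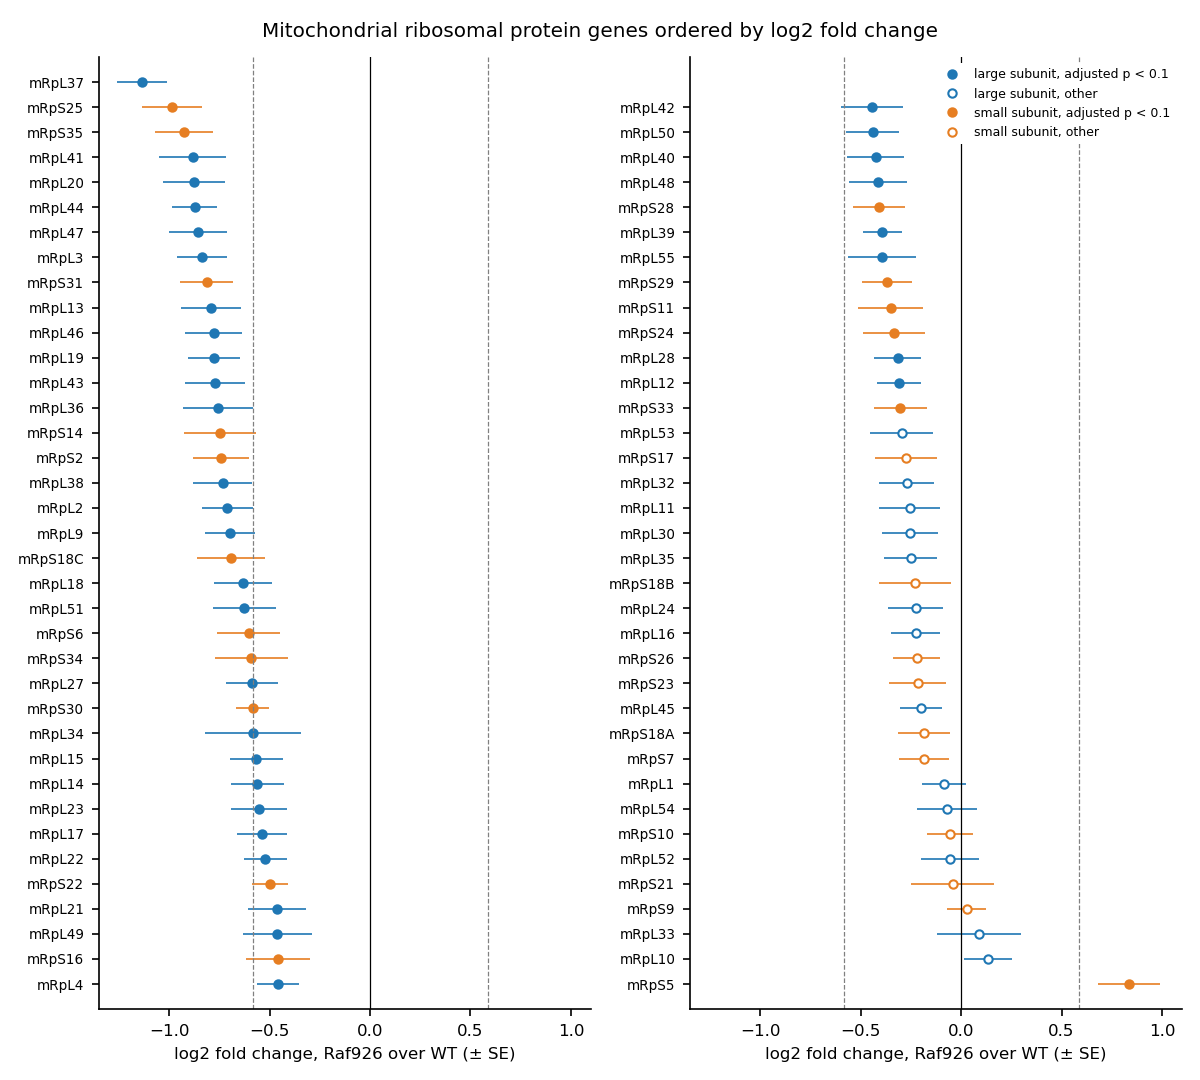
Log2 fold change of Raf926 over WT (x axis) for each of the 73 mitochondrial ribosomal protein genes, in order from the most negative; bars are standard errors, filled points have an adjusted p under 0.1 and dashed lines mark a fold of 1.5. All but 4 points lie left of 0, mRpS5 stands alone at 0.83, and of the other 3, mRpS9, mRpL33 and mRpL10, each falls below 0 when counts are scaled by library size or the upper quartile.

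How far the members lay below WT depended on the scaling. TMM factors were 0.931 to 0.937 in Raf926 samples and 1.03 to 1.11 in WT samples. Scaled by library size alone, the median over all genes moved by -0.20 on the log2 scale. At that setting 44 members were called lower, and 3833 of all genes, against 3116 with TMM. With upper-quartile scaling the median over all genes moved by -0.16, and 39 members and 3675 of all genes were called lower. The median member was 0.41 below the median of all genes on the log2 scale under TMM, DESeq2's size factors, library size and the upper quartile. Another scaling shifts every gene by about the same amount, so this gap could hardly change and is no sign of stability.

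The gene that fell furthest was mRpL37, which encodes a large-subunit protein with no bacterial counterpart. It had 584, 573 and 626 normalized counts in Raf926 samples, against 1235, 1411 and 1273 in WT samples. Every Raf926 sample was under the lowest WT sample by a wide margin. The log2 fold change was -1.14 ± 0.13 (adjusted p = 2.9e-04), or 2.20-fold lower. The gene lies at 3R:10782563-10784092 on the minus strand (BDGP6.54), and none of its exons overlaps another gene.

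The small-subunit proteins mRpS25 and mRpS35, also without bacterial counterparts, came next. mRpS25 had 384, 344 and 408 normalized counts in Raf926 samples, against 721, 760 and 768 in WT samples, a log2 fold change of -0.99 ± 0.15 (adjusted p = 0.00108). mRpS35 had 483, 552 and 563 in Raf926 samples, against 1024, 1093 and 923 in WT samples, a log2 fold change of -0.93 ± 0.14 (adjusted p = 0.00116). In both genes every WT sample was far above every Raf926 sample, and the WT samples lay closer together for mRpS25 than for mRpS35.

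mRpL41 and mRpL44 belong to the large subunit, have no bacterial counterpart, and mRpL44 resembles the nuclease RNase III. mRpL41 had 334, 288 and 361 normalized counts in Raf926 samples, against 633, 621 and 560.1 in WT samples (log2 fold change -0.88 ± 0.17). mRpL44 had 814, 749.9 and 801 in Raf926 samples, against 1431, 1518 and 1387 in WT samples (-0.87 ± 0.11). Neither gene's groups overlapped, and the adjusted p-values were 0.00291 for mRpL41 and 5.4e-04 for mRpL44.

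Proteins of bacterial descent were also among the largest falls. mRpL20, whose bacterial counterpart binds rRNA early in the assembly of the large subunit, had 294, 308 and 293 normalized counts in Raf926 samples, against 552, 566 and 530.1 in WT samples (log2 fold change -0.88 ± 0.15, adjusted p = 0.00207). mRpL47, the counterpart of bacterial L29 near the exit of the peptide tunnel, had 439.8, 531 and 516 in Raf926 samples, against 855, 917 and 918 in WT samples (-0.86 ± 0.14, adjusted p = 0.00173). mRpL3, whose bacterial counterpart reaches towards the peptidyl transferase centre, had 663, 657 and 751 in Raf926 samples, against 1183, 1300.1 and 1219 in WT samples (-0.84 ± 0.13, adjusted p = 0.00103). The groups were fully apart in all of these genes. All 8 genes named here with the largest falls stayed called lower when any of the 6 samples was left out. They also stayed so under a test against a fold of 1.5 itself (glmTreat). That test called 12 of the 73 members lower, against 2395 of the 11568 genes tested. This was a smaller share of the members than of all genes.

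**Figure D2:**
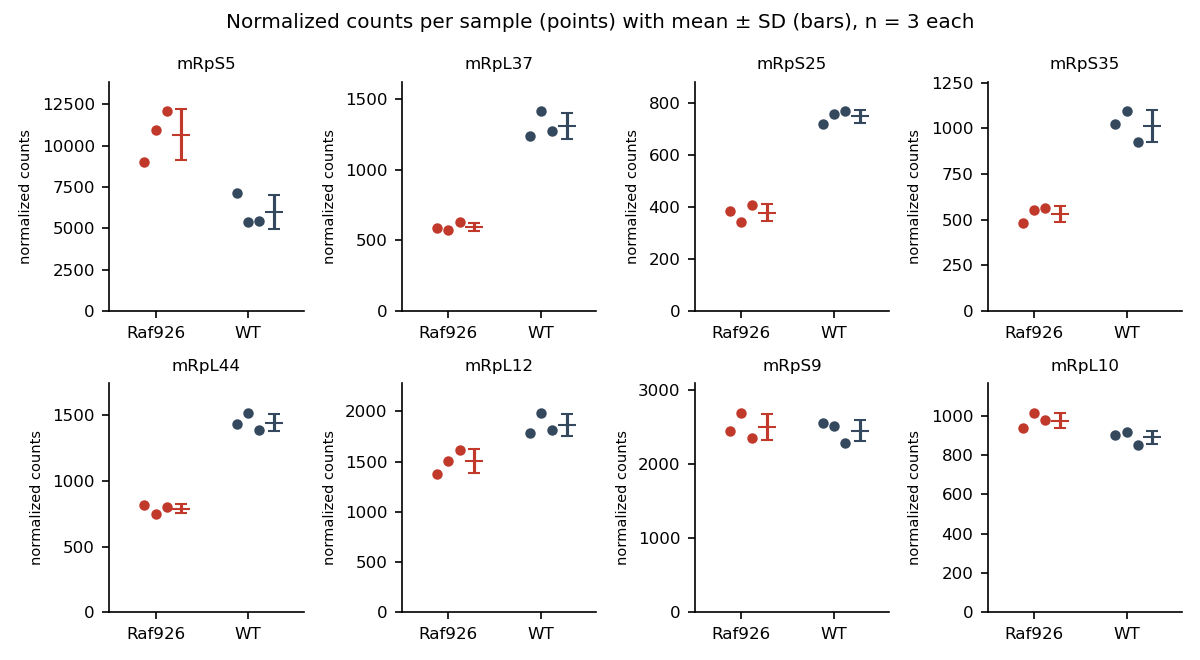
Normalized counts (y axis, from 0) of 8 mitochondrial ribosomal protein genes in each Raf926 sample (left of each panel) and each WT sample (right); points are samples, bars the mean ± SD of 3. Raf926 points lie under all WT points for mRpL37, mRpS25, mRpS35, mRpL44 and mRpL12, over them for mRpS5 and narrowly for mRpL10, and among them for mRpS9; scaled by library size alone, the log2 fold changes of mRpL10 and mRpS9 turn negative (-0.06 and -0.17).

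mRpS5 was the exception. Its bacterial counterpart, S5, lies where mRNA enters the small subunit and bears on the accuracy of decoding. mRpS5 had 8992, 10910.1 and 12064 normalized counts in Raf926 samples, against 7136, 5376 and 5417 in WT samples. All Raf926 samples were above the highest WT sample, though WT replicate 1 came nearer to them than the other WT samples did. The log2 fold change was 0.83 ± 0.15 (adjusted p = 0.00259), or 1.78-fold higher, and it was between 0.72 and 0.95 when any single sample was left out. Under library size scaling it was 0.64. mRpS5 took 15.9% ± 1.85 of the summed normalized counts of the mitochondrial ribosomal protein genes in Raf926 samples, against 7.31% ± 1.13 in WT samples (SD, n = 3 each).

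The identity of the mRpS5 reads is less certain than for most members. The expected counts of mRpS5 were not whole numbers in any of the 6 samples, which shows that RSEM had divided reads that match more than one place. The same held for mRpL13, mRpL53, mRpS14, mRpS21 and mRpS24. The identifier of mRpS5 in the deposited tables differs from that of the later annotation, and the gene was matched through shared transcript identifiers. BDGP6.54 places it at 3L:24537236-24543534 on the plus strand, with no exonic overlap with another gene.

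Levels can be compared between genes only per length, here as normalized counts per kb of the deposited effective length. On this scale mRpS5 was the most abundant member in both groups, at 10487 in Raf926 samples and 5882 in WT samples. That was 7.41 times the level of the median member in Raf926 samples and 3.15 times in WT samples. mRpL33 and mRpL34 followed, but their effective lengths were under 100 bases, which makes their levels per length uncertain. The least abundant members were mRpL38, mRpS31 and mRpL37. The median member stood at 1415 normalized counts per kb in Raf926 samples and 1867 in WT samples, while the median over all genes tested was 488 in Raf926 samples and 497 in WT samples. All 73 members were above the median gene in both groups. Levels were more unequal among members in Raf926 samples, where the upper quartile was 1.90 times the lower, than in WT samples, where it was 1.54 times.

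**Figure D3:**
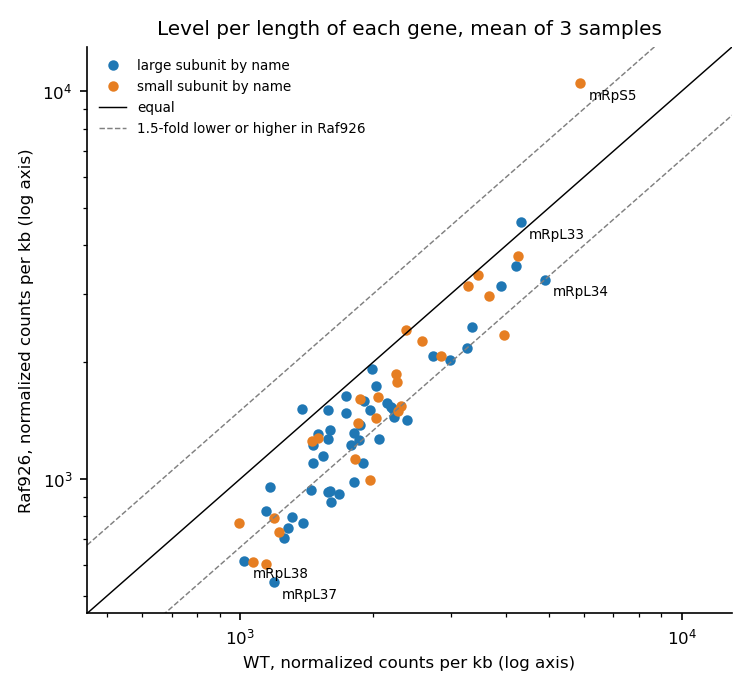
Mean normalized counts per kb of each mitochondrial ribosomal protein gene in Raf926 samples (y axis) and in WT samples (x axis), both on log axes; the solid line marks equality and dashed lines a fold of 1.5. Most points fall under the solid line, and the gap is wider at the low end of the range, with mRpS5 at 10487 in Raf926 and 5882 in WT above the upper dashed line.

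The less abundant members lay further below WT. Of the 25 least abundant per kb, by the mean over all samples, 16 (64%) were called lower, with a median log2 fold change of -0.73. The middle 24 had 5 (20.8%) called lower and a median of -0.45. The 24 most abundant had 6 (25%) called lower, mRpS5 called higher, and a median of -0.31. Over all genes tested 26.9% were called lower, so calls in the middle and most abundant members were no more frequent than among all genes. Spearman's rho between mean level and log2 fold change was 0.49 over the 73 genes and 0.47 without mRpS5, and with the level in WT samples alone it was 0.32. These genes share the same libraries, and level and change come from the same counts, so the values are descriptions. Effective length was hardly related to the change (rho -0.07).

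Falls were spread over the parts of the mitoribosome. Over all genes tested 26.9% were called lower, and 34.3% had an adjusted p under 0.1 and were lower. Of the 47 proteins named for the large subunit, 18 (38.3%) were called lower and 34 (72.3%) were lower without the fold threshold. Their median log2 fold change was -0.46. Of the 26 named for the small subunit, 9 (34.6%) were called lower and 16 (61.5%) were lower without the fold, with a median of -0.36. Among the 44 proteins with a bacterial counterpart, 15 (34.1%) were called lower and mRpS5 was called higher, with a median of -0.46. Among the 29 classed as without one, 12 (41.4%) were called lower and all 29 had a negative log2 fold change, with a median of -0.44. The classes follow the naming of the mammalian mitoribosome. By that naming the 29 include mRpS18A and mRpS18B, although both are related to mRpS18C, which stands at the position of bacterial S18. The differences between the classes were not tested.

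Proteins of the stalk, the flexible arm to which translation factors bind, showed small differences with TMM. mRpL12, which forms the stalk and in mammals also binds the mitochondrial RNA polymerase, had 1381, 1506 and 1618 normalized counts in Raf926 samples, against 1784, 1984 and 1814 in WT samples. The groups did not overlap, and the log2 fold change was -0.31 ± 0.11 (adjusted p = 0.0388). The adjusted p was 0.125 without Raf926 replicate 1 and 0.134 without Raf926 replicate 2. Under library size scaling the log2 fold change was -0.51 (adjusted p = 0.00371).

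mRpL10, which anchors the stalk to the large subunit, had 934, 1013 and 975 normalized counts in Raf926 samples, against 899, 916 and 852 in WT samples. Every Raf926 sample was higher, by little, with a log2 fold change of 0.13 ± 0.12 (adjusted p = 0.365) that turned to -0.06 under library size scaling and -0.03 under upper-quartile scaling. mRpL11, at the base of the stalk, had 551, 588 and 600.2 in Raf926 samples, against 721, 758 and 600.1 in WT samples. WT replicate 3 alone reached down to the Raf926 samples, and the log2 fold change was -0.26 ± 0.15 (adjusted p = 0.183), or -0.34 (adjusted p = 0.0680) without that sample. It was -0.45 (adjusted p = 0.0224) under library size scaling and -0.41 (adjusted p = 0.0350) under upper-quartile scaling.

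Proteins along the peptide tunnel were lower or near WT. mRpL4, whose bacterial counterpart lines the tunnel, had 1166, 1173 and 1194 normalized counts in Raf926 samples, against 1660.1, 1697 and 1493 in WT samples (log2 fold change -0.46 ± 0.11, adjusted p = 0.00701). mRpL23, whose bacterial counterpart sits at the tunnel exit, had 498, 544 and 483 in Raf926 samples, against 754, 770.3 and 714 in WT samples (-0.55 ± 0.14, adjusted p = 0.0106). Both fell short of the fold threshold with TMM, though the groups were fully apart. Under library size scaling both were called lower, mRpL4 at -0.65 (adjusted p = 8.9e-04) and mRpL23 at -0.75 (adjusted p = 0.00213). mRpL45, which in mammals lies at the exit and faces the inner membrane, had 1394, 1270.2 and 1278 in Raf926 samples, against 1551, 1546 and 1431 in WT samples (-0.20 ± 0.10, adjusted p = 0.134). Its groups did not overlap either, and its adjusted p was 0.0938 without WT replicate 3 and 0.00809 under library size scaling.

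Among small-subunit proteins of bacterial descent, several did not pass the test with TMM. mRpS7, a protein of the head of the subunit, had 2049.9, 1855 and 2162 normalized counts in Raf926 samples, against 2591, 2295 and 2009 in WT samples, with overlapping groups (log2 fold change -0.18 ± 0.12, adjusted p = 0.228). Without WT replicate 3, whose value was the lowest of the WT samples, its adjusted p was 0.0989. Its log2 fold change was -0.38 (adjusted p = 0.0212) under library size scaling and -0.34 (adjusted p = 0.0355) under upper-quartile scaling. mRpS9, whose bacterial counterpart reaches the tRNA in the P site, had 2452, 2697 and 2361 in Raf926 samples, against 2563, 2513 and 2294 in WT samples. Its log2 fold change of 0.03 ± 0.10 (adjusted p = 0.827) was -0.17 under library size scaling. Exons of mRpS9 share 325 bases with ArgRS-m on the other strand, and the counting is not stated to use strand, so reads of the pair may be mixed. ArgRS-m itself, the mitochondrial arginyl-tRNA synthetase, had a log2 fold change of -0.50 ± 0.18 (adjusted p = 0.0444).

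mRpS10 and mRpS21 of the small subunit and mRpL52 and mRpL33 of the large subunit were also among the members with the smallest differences. mRpS10 had a log2 fold change of -0.06 ± 0.11, mRpS21 of -0.04 ± 0.21, mRpL52 of -0.05 ± 0.14 and mRpL33 of 0.09 ± 0.21, and the groups of each overlapped. Exons of mRpS21 share 228 bases, 48% of their length, with CG8870 on the other strand, so its reads may be mixed too. Under library size scaling mRpL33 turned to -0.11, and mRpS10 was at -0.25 (adjusted p = 0.0643). A p that misses the threshold does not show that these genes stood at their WT level.

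The mRpS18 genes encode related proteins that occupy different places in the mammalian mitoribosome. mRpS18C, at the position of bacterial S18 in the small subunit, had 338, 285 and 283 normalized counts in Raf926 samples, against 509, 468 and 488 in WT samples. Every Raf926 sample was far under the WT samples, and the log2 fold change was -0.69 ± 0.17 (adjusted p = 0.00891). mRpS18A, which in mammals belongs to the large subunit, had 709, 699 and 777 in Raf926 samples, against 834, 862 and 788 in WT samples (-0.19 ± 0.13, adjusted p = 0.250). mRpS18B had 512, 708 and 753 in Raf926 samples, against 791, 796 and 726 in WT samples (-0.23 ± 0.18, adjusted p = 0.296), and Raf926 replicate 1 was far below the other Raf926 samples. Only mRpS18C was called, and the difference between the paralogs was not tested. The adjusted p was 0.0246 for mRpS18A and 0.0631 for mRpS18B under library size scaling.

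mRpS30, which is also placed in the large subunit of mammals, had 2533, 2607 and 2615 normalized counts in Raf926 samples, against 3802, 4041 and 3794 in WT samples. The replicates were tight and the groups far apart (log2 fold change -0.59 ± 0.08, adjusted p = 8.6e-04). The fold was just over the threshold, and it fell short without Raf926 replicate 1 (-0.57) or Raf926 replicate 2 (-0.55). mRpS28 had 589, 615 and 597 in Raf926 samples, against 802, 778 and 812 in WT samples (-0.41 ± 0.13, adjusted p = 0.0263). It was called lower under library size scaling (-0.61, adjusted p = 0.00436). mRpL34 was the weakest of the calls, with 276, 188 and 227 in Raf926 samples, against 428, 311 and 297 in WT samples. Its highest Raf926 sample came close to its lowest WT sample, and its log2 fold change was -0.58 ± 0.24 (adjusted p = 0.0655). The adjusted p was 0.223 without Raf926 replicate 2, 0.143 without Raf926 replicate 3 and 0.210 without WT replicate 1. Just under the fold threshold with TMM were mRpL15 (-0.57 ± 0.13) and mRpL14 (-0.56 ± 0.13), and both were called lower under library size scaling (-0.76 each).

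The members are spread over the genome. There are 12 on 2L, 12 on 2R, 17 on 3L, 21 on 3R and 11 on X. Of the 11 on X, 5 (45.5%) were called lower, with a median log2 fold change of -0.56. Of the 62 on autosomes, 22 (35.5%) were called lower, with a median of -0.43. The share over all genes tested was 26.9%, and shares over all genes of X or of the autosomes are not given here. mRpL14, at X:2343997-2344649 on the minus strand, lies 126 bases past the end of Raf, which is on the plus strand. mRpL14 had 832, 718 and 814 normalized counts in Raf926 samples, against 1228, 1209 and 1054 in WT samples (adjusted p = 0.00758). The groups did not overlap, and its change lay close to that of the median member.

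Reads of overlapping genes can be mixed where strand is not used. Exons of 43 members overlap exons of another gene in BDGP6.54, mostly by a short stretch on the other strand, and those of 30 do not. Among the longer overlaps on the other strand were those of mRpS24 (55.3% of its exonic bases), mRpS21 (48%) and mRpS9 (25.1%). Of the 30 without overlap, 11 (36.7%) were called lower, with a median log2 fold change of -0.44. Of the 43 with overlap, 16 (37.2%) were called lower, with a median of -0.46. Over all genes tested the share was 26.9%. In 3 members, mRpL13, mRpL53 and mRpS14, the overlap is on the same strand, so their reads are uncertain.

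Summed over the 72 genes other than mRpS5, normalized counts were 56096 ± 1191 in Raf926 samples and 75666 ± 3092 in WT samples (SD, n = 3 each). The Raf926 sums, between 54995 and 57360.3, were all under the WT sums, between 72391 and 78533, and the Raf926 mean was 74.1% of the WT mean. With mRpS5 included the sums were 66751 ± 2366 in Raf926 samples and 81643 ± 3339 in WT samples, or 81.8%.

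Counts of the rRNA partners of these proteins went the other way. mt:lrRNA, the large rRNA of the mitoribosome, had 3100668, 3538501 and 3702277 normalized counts in Raf926 samples, against 2449708, 2373846 and 1938079.6 in WT samples, or 1.53 times the WT mean. It took 8.01% to 9.44% of all expected counts in Raf926 samples, against 6.10% to 7.28% in WT samples. mt:srRNA, the small rRNA, had 6572, 9278 and 10298 in Raf926 samples, against 2086, 1794 and 1734 in WT samples, or 4.66 times. All Raf926 samples were above all WT samples for both. rRNA genes were left out of the fit, so these are levels without a test. The smallest 2-sided p that an exact permutation test of 3 against 3 samples can give is 0.1. The labels name total RNA and the study's methods name mRNA as the material, and how far library preparation set these rRNA counts was not tested.

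**Figure D4:**
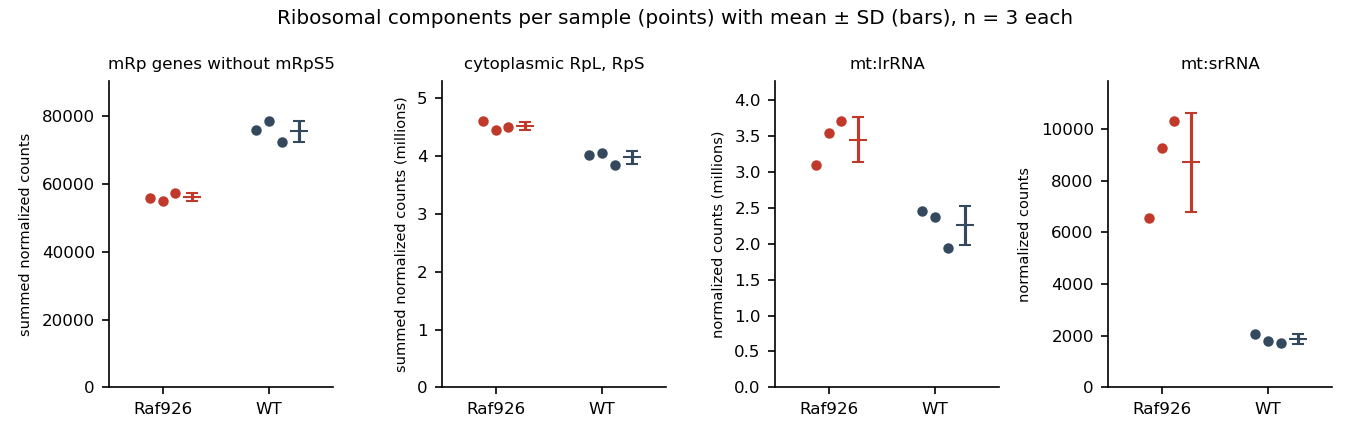
Summed normalized counts of mitochondrial ribosomal protein genes without mRpS5, of cytoplasmic ribosomal protein genes, and normalized counts of mt:lrRNA and mt:srRNA (y axes, from 0) in Raf926 samples (left) and WT samples (right); points are samples, bars the mean ± SD of 3. The mitochondrial ribosomal protein sum is lower in all Raf926 samples (56096 against 75666 on average), and the other 3 quantities are higher in all Raf926 samples, although cytoplasmic ribosomal proteins took overlapping shares of all counts in the groups.

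Cytoplasmic ribosomal proteins, which build the ribosomes of the cytosol, were near or above their WT level, depending on the scaling. Of 92 genes whose symbols start with RpL or RpS, 89 were tested. With TMM 5 (5.62%) were called higher, against 22.7% of all genes tested, and 1 (1.12%) lower, against 26.9%. Library size scaling and upper-quartile scaling each gave 3 called higher and 3 lower. Without the fold threshold 38 (42.7%) were higher with TMM, against 32.3% of all genes, and 8 (8.99%) lower, against 34.3%. Their median log2 fold change was 0.14, and it was -0.02 under upper-quartile scaling. Under library size scaling it was -0.06, with 22 genes higher and 31 lower without the fold threshold. The 5 called higher were RpL36, RpL41, RpS19b, RpS10a and RpL22-like, and the 1 called lower was RpS15Ab. Summed normalized counts were 4520554 ± 74613 in Raf926 samples and 3978911 ± 107631 in WT samples (SD, n = 3 each), 1.14 times as high. As a share of all expected counts the groups overlapped, at 11.4% to 11.9% in Raf926 samples and 11.7% to 12.1% in WT samples. For every 100 counts of cytoplasmic ribosomal proteins there were 1.24 ± 0.03 counts of mitochondrial ribosomal proteins without mRpS5 in Raf926 samples and 1.90 ± 0.03 in WT samples. This ratio is free of the scaling between samples.

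Mitoribosomal proteins with names of their own were lower too. bonsai, the mitochondrial S15, had 824, 894 and 992 normalized counts in Raf926 samples, against 1207, 1359 and 1255 in WT samples (log2 fold change -0.50 ± 0.13, adjusted p = 0.0110). tko, the mitochondrial S12 at the decoding centre, had 996, 995 and 952 in Raf926 samples, against 1152, 1331 and 1108 in WT samples (-0.29 ± 0.12, adjusted p = 0.0770). The groups of both were apart, and neither reached a fold of 1.5 with TMM, whereas bonsai was called lower under library size scaling (-0.69, adjusted p = 0.0022). A further mitoribosomal protein, the GTP-binding DAP3, is the member mRpS29, with a log2 fold change of -0.37 ± 0.12.

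Of 8 mitochondrial translation factors tested, 1 (12.5%) was called lower and 1 (12.5%) higher, against 26.9% and 22.7% of all genes. Without the fold threshold 2 (25%) were lower, against 34.3% of all genes, and 3 (37.5%) higher, against 32.3%. The counts are close to those shares and show nothing particular to these factors. mEFTu1, an elongation factor that brings tRNAs to the ribosome, had 2131, 2306 and 2149.5 normalized counts in Raf926 samples, against 3933, 4593 and 4287 in WT samples (log2 fold change -0.96 ± 0.10, adjusted p = 1.9e-04). mRRF1, which recycles ribosomes after termination, had 520.0, 633 and 563 in Raf926 samples, against 323, 314 and 299 in WT samples (0.88 ± 0.16, adjusted p = 0.00274). The elongation factor mEFG1 was lower as well (-0.48 ± 0.11), and the initiation factor mIF3 (0.44 ± 0.17) and mEFTu2 (0.30 ± 0.12) were higher, though the adjusted p was 0.177 for mIF3 and 0.458 for mEFTu2 under library size scaling.

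Of 16 mitochondrial aminoacyl-tRNA synthetases and related proteins, which charge tRNAs with amino acids, 5 (31.2%) were called lower, against 26.9% of all genes. None was called higher, against 22.7%, and the median log2 fold change was -0.35. Without the fold threshold 7 (43.8%) were lower, against 34.3%, and 2 (12.5%) higher, against 32.3%. PheRS-m had 468, 417 and 483 normalized counts in Raf926 samples, against 1254, 1268 and 1416 in WT samples (-1.53 ± 0.13, adjusted p = 1.1e-04). AspRS-m (0.50 ± 0.13) and MetRS-m (0.48 ± 0.14) were the 2 that were higher.

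Of 13 factors of mitochondrial DNA and its RNA, 4 (30.8%) were called lower and 2 (15.4%) higher, near the shares over all genes of 26.9% and 22.7%. The called falls were mtDNA-helicase (-1.45 ± 0.23), the accessory subunit of the DNA polymerase PolG2 (-1.37 ± 0.20), and the RNA-binding proteins Lrpprc2 (-1.36 ± 0.16) and bsf (-1.21 ± 0.09). The rises were mtTFB1 (1.03 ± 0.10), which in mammals methylates the small mitochondrial rRNA, and the catalytic polymerase subunit PolG1 (0.81 ± 0.18). TFAM, which packages mitochondrial DNA, did not pass, with 3119, 3361 and 3075 normalized counts in Raf926 samples, against 3193, 3501 and 2860.3 in WT samples (0.00 ± 0.10, and -0.19 with an adjusted p of 0.0802 under library size scaling).

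Of the 13 mRNAs of mitochondrial DNA, the templates of the mitoribosome, 12 were tested. Only mt:ATPase6 was called (8.33%), against 22.7% of all genes called higher and 26.9% called lower. Its log2 fold change was 1.37 ± 0.16 (adjusted p = 3.2e-04). Without the fold threshold 4 (33.3%) were higher, against 32.3% of all genes, and 3 (25%) lower, against 34.3%. The median log2 fold change was -0.04, or -0.24 with 2 higher and 4 lower under library size scaling. Summed normalized counts with TMM were 1126077 to 1268893 in Raf926 samples, against 798733 to 1039638 in WT samples. As a share of all expected counts the groups overlapped, at 2.91% to 3.24% in Raf926 samples and 2.51% to 3.09% in WT samples. mt:ATPase8, which shares a transcript with mt:ATPase6, was listed at 0 in every sample, and the reads of the pair may have been given to 1 gene.

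**Figure D5:**
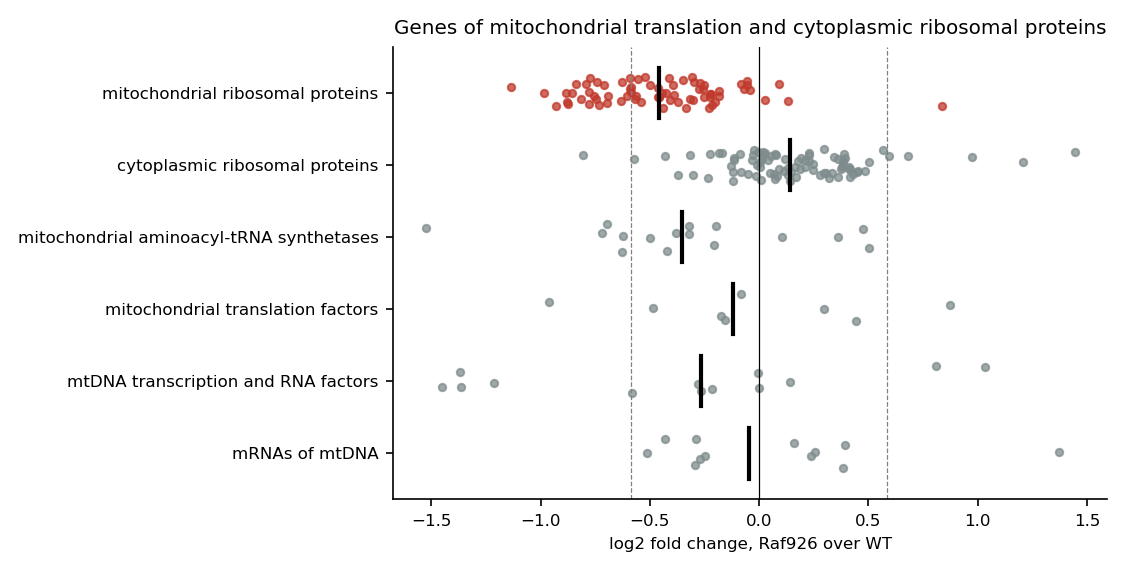
Log2 fold change of Raf926 over WT (x axis) for each tested gene of 6 lists; points are genes, thick bars the median of each list and dashed lines a fold of 1.5. The 73 mitochondrial ribosomal proteins gather around -0.46 and the 89 cytoplasmic ones around 0.14 (-0.06 under library size scaling), while the smaller lists spread to both sides.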

How the data were processed

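RNA of 6 embryo samples, 3 Raf926 and 3 WT by the sample labels, was sequenced by the authors, aligned with STAR 2.7.1a to BDGP6.22 (Ensembl version 97) and quantified with RSEM 1.3.1. The authors deposited estimated counts (expected counts) per gene without normalization, and an effective length per gene. Their TPM and FPKM columns were not used. Of the expected counts, 11.5% were not whole, by a tolerance of 0.001, and all were rounded. No molecular identifiers were used, so true error exceeds what counting alone gives. Names and coordinates came from BDGP6.54, a later annotation, which matched 17587 of 17714 gene identifiers, and 75 more were matched through shared transcripts. No genome sequence was used here.

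As in the study, 390 rRNA, snoRNA and snRNA genes and genes with a mean under 10 counts were removed, which left 11568. Counts were scaled by TMM and compared with edgeR 4.0.16 (R 4.3.3), by the quasi-likelihood test without covariates, and p-values were adjusted over all tested genes by the Benjamini-Hochberg method. The standard error is the log2 fold change over the square root of F. The study's DESeq2 Wald test (DESeq2 1.42.0) was an alternative. Other alternatives changed the scaling (size factors of DESeq2, library size, upper quartile), the filter (none, filterByExpr), the design (replicate block), the samples (1 left out at a time) or the threshold (glmTreat, adjusted p under 0.05). The test was also run on simulated counts with known changes in 200 genes. These are far fewer than the genes called here, so the simulation does not check the scaling between the groups. Replicates differed by far more than sampling noise, so none was counted as a repeat of another.

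The members, the gene lists and the rules were chosen with earlier results of these data known. Members named with values were the 8 called ones with the largest fall and the largest rise (1 rise was called), the 4 with the smallest change, the 3 most and 3 least abundant per kb, and a list of members with known roles. mRpL13, mRpL14, mRpL15, mRpL53, mRpS14 and mRpS24 were named after their values were seen. PTCD3, mEFG2 and RRF2mt had no match. Promoter motifs were not analysed here. Plots used matplotlib 3.10.9.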

Additional observations from a re-analysis of the deposited data

How the results depend on the processing

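The fall of the mitochondrial ribosomal protein genes kept its direction under every alternative run, and its size depended on the scaling and on the fold threshold. Members called lower were 27 with TMM, 44 with library size scaling and 12 with glmTreat against a fold of 1.5. Over all genes tested the same settings called 3116, 3833 and 2395 lower, so these counts moved for all genes as well. With TMM and with library size scaling a larger share of the members than of all genes was called lower. With glmTreat the share of the members was the smaller one. The members' median log2 fold change of -0.46 was -0.65 with library size and -0.61 with the upper quartile. The 10 genes called lower in the other lists of mitochondrial translation were 17 with library size, 16 with the upper quartile and 6 with glmTreat. DESeq2's Wald test called 23 members lower, all among the 27. With each sample left out in turn, 21 to 29 members were called lower (fewest without Raf926 replicate 2) and the median was between -0.50 and -0.40. Of the 27, 21 were kept in all 6 such fits. mRpS5 was the 1 member called higher in each of these fits. The sign of some small changes was not stable. mRpS9 (0.03) was -0.17 with library size, -0.13 with the upper quartile, -0.0033 with no filter, and between -0.013 and 0.071 with a sample left out. mRpL33 (0.09) was -0.11 with library size, -0.069 with the upper quartile, and between -0.042 and 0.273 with a sample left out. mRpL10 (0.13) was -0.065 with library size and -0.026 with the upper quartile, and mRpS21 (-0.04) was between -0.15 and 0.14 with a sample left out. The labels give replicate numbers and do not say that these pair the samples. Deviations from the group means of same-numbered samples correlated at -0.04, -0.20 and -0.18. Deviations cancel within each group, which ties such correlations to each other, so they cannot exclude a shared batch. With the replicate number as a block 26 members were called lower. With that block 42 had an adjusted p under 0.1 and were lower, against 50 without it.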
